A study of Mus musculus with 6 samples.

Results

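Matrix metalloproteases (MMPs), ADAMs, ADAMTS proteases, ADAMTS-like proteins and the tissue inhibitors of metalloproteases (TIMPs) were read out in mouse satellite cells, the resident stem cells of skeletal muscle, with and without a lysine-to-arginine substitution in PAX7. The members were all protein-coding genes whose symbol consists of Mmp, Adam, Adamts, Adamtsl or Timp followed by a number, which gave 83 of the 21805 protein-coding genes in the mouse annotation. They comprised 22 Mmp, 33 Adam, 19 Adamts, 5 Adamtsl and 4 Timp genes. Mmp1a, which the annotation lists as a polymorphic pseudogene, was left out by this rule.

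Satellite cells were sorted from hindlimb muscle that had not been injured, as cells positive for α7-INTEGRIN and CD34 and negative for SCA-1, the leukocyte proteins CD45 and CD11b and the endothelial protein CD31. The mice were 6 to 8 weeks old on the C57BL/6J strain. Pax7KR mice carried on both alleles an arginine in place of an acetylated lysine of PAX7, introduced by CRISPR/Cas9, and Pax7WT mice were littermates without it. Each genotype was represented by 3 RNA-seq libraries made from 15 ng of RNA each. All mice were otherwise untreated, and whether a library came from 1 mouse or from a pool is not given in the sources used here, so p-values measure the spread between these libraries. Because the samples are bulk RNA, fewer cells of a type and less RNA per cell cannot be told apart.

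MMPs are zinc-dependent endopeptidases that cut collagens, gelatin and other matrix proteins, and most are secreted as inactive precursors. ADAMs sit in the plasma membrane and release the ectodomains of surface proteins such as Notch receptors and growth factor precursors, whereas ADAMTS enzymes are secreted and cut proteoglycans, procollagens and microfibril proteins. TIMPs bind the active site of these enzymes. A satellite cell lies between the muscle fibre and its basal lamina, and matrix remodelling and Notch cleavage are both known parts of its biology.

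The libraries held 17822367 to 27908054 estimated read pairs. The transcription factor that defines the cells was present in all of them, with Pax7 at 511 to 590 TPM (a level per transcript length and library size), and the summed CPM (reads scaled to library size) of 10 satellite cell markers ranged from 5999 to 6545 in Pax7WT and from 6092 to 6514 in Pax7KR. The list for fibro-adipogenic progenitors, fibroblast-like cells of muscle (12 genes), summed to 2026 to 2143 CPM in Pax7WT and 2020 to 2137 CPM in Pax7KR, with 5 genes higher and 7 lower in Pax7KR. Col3a1 (1258 to 1411 CPM) and Dpt (571 to 633 CPM) made up most of this sum, Dcn was at 24.7 to 45.3 CPM, and Pdgfra and Cd248 were at 1.51 to 3.81 and 0.189 to 0.78 CPM. The T cell gene Cd3e was at 0 in all libraries, and the pan-leukocyte gene Ptprc at 0.0946 to 1.27 CPM. The summed immune list (10 genes) was 21.1 to 41.9 CPM in Pax7WT and 21.6 to 29.9 CPM in Pax7KR. Endothelial genes summed to 286 to 365 and 317 to 413 CPM, with 9 of 10 higher in Pax7KR, and erythroid genes to 190 to 376 and 329 to 556 CPM, with 5 of 5 higher in Pax7KR. Smooth muscle and pericyte genes summed to 2899 to 3363 and 2767 to 2978 CPM, with 8 of 8 lower in Pax7KR. Notch3, also one of the substrates below, made up most of this sum, at 2113 to 2475 and 2052 to 2218 CPM. Tenocyte genes summed to 39.5 to 81.5 and 50.9 to 53.8 CPM, with 4 of 6 lower and a median log2 fold change of -0.30. This median was 0.66 for erythroid and 0.39 for endothelial genes. It was -0.09 for smooth muscle and pericyte genes, -0.09 for immune genes and -0.03 for fibro-adipogenic genes. None of these marker genes passed the adjusted threshold in edgeR, where 0 of all 17152 genes tested passed. Before adjustment, 1 immune gene was under 0.05 in edgeR and lower in Pax7KR, where 2.43% of all genes passed. The part of these cell types in the values below was not tested. Libraries stood apart in 2 ways. Pax7WT replicate 2 had the lowest summed level of 15 immediate-early and stress genes (28790 CPM, against 36978 to 47706 in the others). Pax7KR replicate 2 had Ddx3y, a Y-linked gene, at 52.0 CPM against 117 to 135 CPM elsewhere. Eif2s3y, also Y-linked, was at 38.4 CPM there against 77.0 to 114 CPM elsewhere. The X-linked gene Xist was at 0.437 to 2.29 CPM over all libraries and at 0.88 CPM in Pax7KR replicate 2.

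Of the 83 members, 22 had no read in any library and 30 reached a mean of 1 TPM, the unit in which genes are compared with each other here. A mean of 10 TPM was reached by 19 members and 100 TPM by 5. Summed over all members, the level was 1701 ± 76.6 TPM in Pax7WT and 1797 ± 20.02 TPM in Pax7KR (SD, n = 3), without a test. By replicate, the values were 1696, 1627 and 1780 TPM in Pax7WT and 1820, 1790 and 1781 TPM in Pax7KR. The third replicates of both genotypes thus had nearly the same sum. Adamts genes supplied 33.7% of this sum, Timp genes 33.2%, Mmp genes 21.1%, Adam genes 9.69% and Adamtsl genes 2.34%. The distribution was steep, since Timp2 alone supplied 26.4% of the summed TPM, the 3 highest genes 58.0% and the 10 highest 87.7%.

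**Figure D1:**
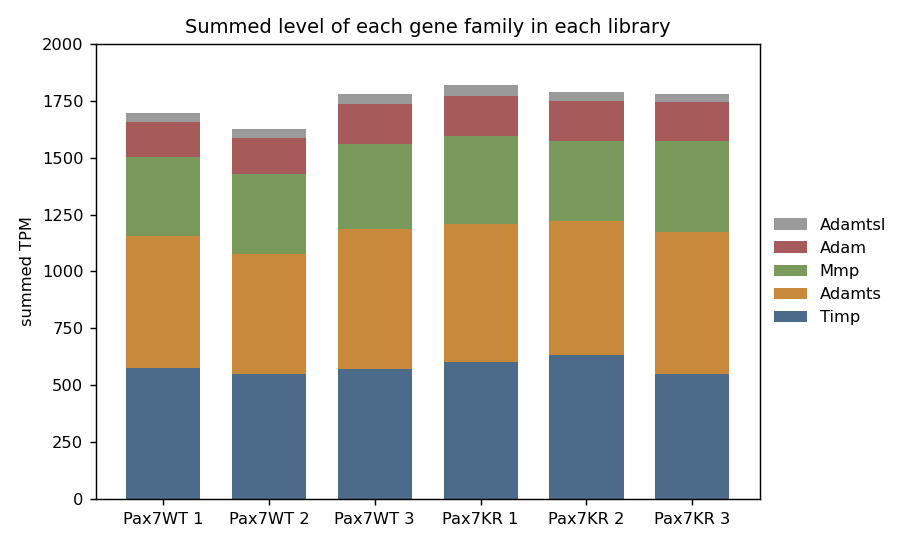
Stacked bars give the summed TPM of the Adam, Adamts, Adamtsl, Mmp and Timp genes (y axis) in each of the 3 Pax7WT and 3 Pax7KR libraries (x axis). Total height ranges from 1627 to 1820 TPM, and the Adamts and Timp genes take the largest shares in every library.

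In order of mean TPM, Timp2 stood first at 462 ± 33.7 TPM (SD over 6 libraries) and its lowest library, at 439 TPM, lay above the highest library of any other member. Adamts10 (254 to 335 TPM) and Mmp2 (244 to 303 TPM) followed and did not separate from each other. Adamts1 (129 to 202 TPM) and Timp3 (84.4 to 141 TPM) also overlapped. Mmp14, Adamts5 and Adam10 followed with means of 66.9, 49.0 and 47.9 TPM, and the range of Adamts5 (42.4 to 60.5 TPM) overlapped both others, while Mmp14 (54.7 to 73.3 TPM) lay above Adam10 (43.9 to 51.9 TPM) in every library. The next 11 genes had means from 10.1 TPM (Adam22) to 35.7 TPM (Adamts15), and the last 11 of the 30 had means from 1.72 TPM (Adamts6) to 9.33 TPM (Adamts8).

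**Figure D2:**
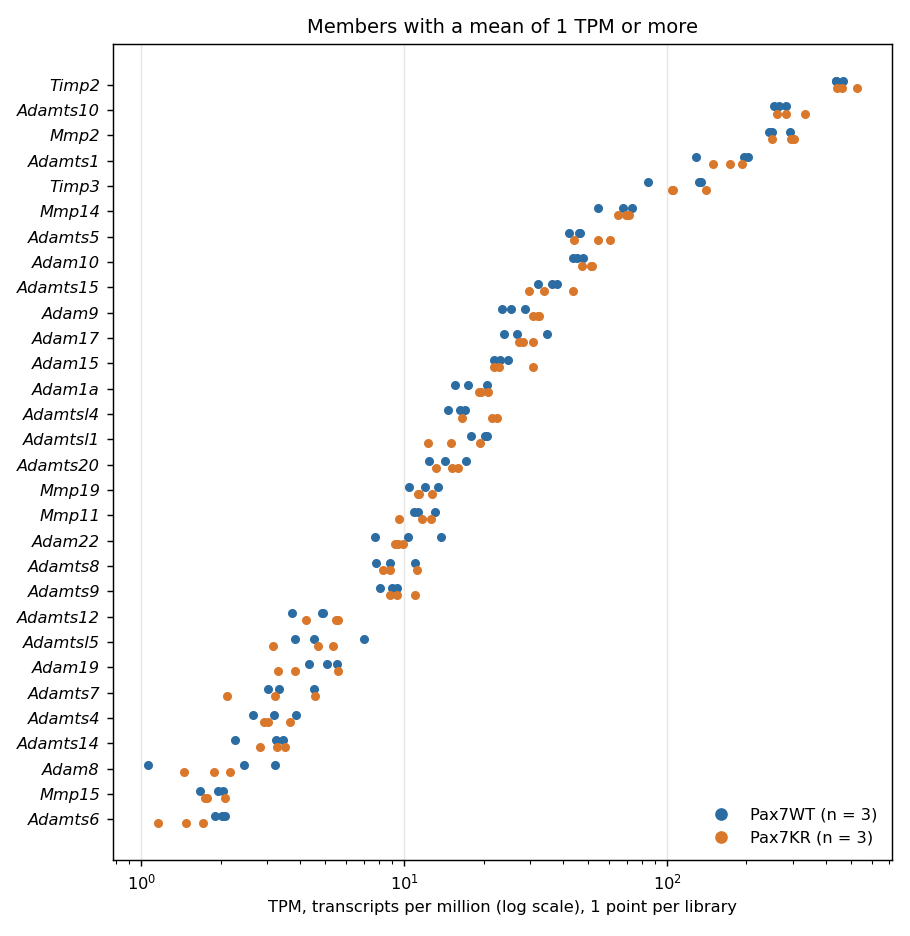
Each row is a member with a mean of 1 TPM or more, and each point is the TPM of that gene (x axis, log scale) in 1 library, blue for Pax7WT and orange for Pax7KR. The 30 genes span from 1.72 TPM (Adamts6) to 462 TPM (Timp2), and the colours are mixed in most rows.

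Many of the silent members lay in gene clusters. In the cluster on chromosome 9 between 7272514 and 7699585 (GRCm38), which holds Mmp13, Mmp12, Mmp1b, Mmp3, Mmp10, Mmp8, Mmp27, Mmp20 and Mmp7, 7 of 9 genes had no read in any library. Mmp3 (stromelysin-1) had 0 to 3 reads per library and Mmp8, the neutrophil collagenase, 11 to 39 reads. No gene of the cluster reached a mean of 1 TPM, and Mmp8 was at 0.369 to 1.27 TPM. A count of 0 allows up to 3 reads, which corresponds to 0.11 to 0.169 CPM in these libraries, counting error only. On chromosome 8, the run Adam24, Adam25, Adam20 and Adam39 and the run Adam26b, Adam26a and Adam34 were at 0 throughout. In the run Adam18, Adam3, Adam5, Adam32 and Adam9 (24602246 to 25016927) only Adam9 reached a mean of 1 TPM. Most of these Adam genes are best known from testis. In contrast, both genes of the neighbouring pairs Adamts1 and Adamts5 on chromosome 16 and Adamts15 and Adamts8 on chromosome 9 were above 1 TPM.

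Promoter sequences are shown for genes of the mostly silent chromosome 9 cluster. The genes shown hold the letters of an AP-1 element and gave no or almost no reads. Beside them are Adam19, which has the same letters and is above 1 TPM, and 2 expressed genes without them. AP-1 is the dimer of FOS and JUN proteins. Each sequence is the 250 bases before a RefSeq transcript start (GRCm38.p6), written 5' to 3' on the strand of the gene. Capitals mark a match to TGANTCA (AP-1) or, in Mmp10 nearer the 5' end, to TAATTA (homeodomain core).
Mmp13: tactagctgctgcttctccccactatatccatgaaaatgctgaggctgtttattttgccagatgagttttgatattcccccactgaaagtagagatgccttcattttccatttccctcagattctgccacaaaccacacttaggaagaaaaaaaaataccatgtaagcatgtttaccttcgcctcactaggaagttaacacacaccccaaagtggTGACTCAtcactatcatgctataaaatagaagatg
Mmp10: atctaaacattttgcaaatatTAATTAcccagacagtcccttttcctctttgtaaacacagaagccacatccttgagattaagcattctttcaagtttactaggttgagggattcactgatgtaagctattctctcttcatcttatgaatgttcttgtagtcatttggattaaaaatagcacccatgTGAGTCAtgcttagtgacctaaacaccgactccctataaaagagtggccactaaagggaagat
Mmp3: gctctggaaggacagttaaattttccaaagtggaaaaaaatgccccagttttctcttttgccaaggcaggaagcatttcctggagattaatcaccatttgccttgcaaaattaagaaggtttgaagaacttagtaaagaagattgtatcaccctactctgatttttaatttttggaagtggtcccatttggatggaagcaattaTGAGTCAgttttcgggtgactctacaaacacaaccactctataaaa
Adam19: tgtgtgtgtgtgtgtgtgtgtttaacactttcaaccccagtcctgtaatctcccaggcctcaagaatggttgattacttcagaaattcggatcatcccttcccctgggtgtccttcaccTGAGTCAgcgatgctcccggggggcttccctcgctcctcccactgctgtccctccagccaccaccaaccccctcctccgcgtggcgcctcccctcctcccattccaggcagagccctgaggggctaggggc
Adamts1: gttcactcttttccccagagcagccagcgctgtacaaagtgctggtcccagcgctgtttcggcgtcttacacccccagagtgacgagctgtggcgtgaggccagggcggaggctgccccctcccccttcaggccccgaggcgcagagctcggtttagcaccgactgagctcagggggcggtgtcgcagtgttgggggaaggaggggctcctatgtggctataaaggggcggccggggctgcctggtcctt
Mmp14: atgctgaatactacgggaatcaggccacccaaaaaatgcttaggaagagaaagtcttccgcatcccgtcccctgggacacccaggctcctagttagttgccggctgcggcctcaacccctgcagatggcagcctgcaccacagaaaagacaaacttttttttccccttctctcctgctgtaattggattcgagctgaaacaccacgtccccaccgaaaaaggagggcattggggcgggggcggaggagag
These are chr9:7272264-7272513 for Mmp13, chr9:7502092-7502341 for Mmp10, chr9:7445572-7445821 for Mmp3, chr11:46055734-46055983 for Adam19 and chr14:54431348-54431597 for Mmp14 (all + strand), and chr16:85803114-85803363 for Adamts1 (- strand). The Adam19 window precedes 1 of 3 RefSeq starts for the gene, and that start lies 8 bases from the start of the transcript with the most TPM. The AP-1 match begins at -35 in Mmp13, -63 in Mmp10, -46 in Mmp3 and -131 in Adam19, counted back from the transcript start. RefSeq entries were found for 52 of the 83 members, with 57 windows in all. Of the 30 members above 1 TPM, 19 had an entry, and the 11 without one (Adamts10, Mmp2, Adamts5, Adamts15, Adam9, Adamtsl1, Mmp19, Adamts8, Adamts7, Adamts4 and Adamts6) were not searched. TGANTCA was present in 11 of these windows and in 6.75% of the 32851 mouse windows of this length. The 11 belonged to Adam19, to Adam20, Adam25 and Adam29 on chromosome 8, and to 7 genes of the chromosome 9 cluster (Mmp13, Mmp12, Mmp1b, Mmp3, Mmp10, Mmp20 and Mmp7). The homeodomain core TAATTA occurred in 2 member windows (Mmp10 and Mmp20) and in 4.84% of all windows. The cyclic AMP element TGACGTCA (1.55% of all) and the palindromic homeodomain dimer site (0.384%) occurred in no member window. These 4 motifs read the same on both strands and no match overlapped another. A match is a description of letters and not a binding site.

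For the comparison of Pax7KR with Pax7WT, edgeR's quasi-likelihood test was fitted over 17152 genes, of which 51 were members with 5 or more reads in at least 2 libraries. The remaining 32 members comprised the 22 without reads and 10 with at most 5 reads in any library. At a Benjamini-Hochberg adjusted p of 0.1, 0 of the 51 members and 0 of all genes (0%) passed in edgeR. DESeq2 called 30 genes and, with transcript length as an offset, 45 genes, with 0 members among them in either fit. Adjusted p for the 51 members lay between 0.992 and 0.998. At an unadjusted p of 0.05, 3 members passed, against 803 of all genes. Adam9 was the 1 in the upward direction, where 2.26% of all genes passed, and Adam19 and Mmp11 were the 2 in the downward direction, where 2.43% passed. None of the 51 in CPM had all Pax7KR libraries above all Pax7WT libraries (5.14% of all genes), and 4 had them all below (5.19% of all genes), namely Adam19, Mmp11, Adam23 and Adam21. Adam21 had at most 8 reads in a library. Without Pax7WT replicate 2 the 3 members became 5 (Adam19, Adam1a, Adam21, Adam22 and Adamts1), and without Pax7KR replicate 2 they became 1 (Adam19). The share of all genes was not counted in these fits, so it is not known whether these counts differ from it. Among the 51, 28 were higher and 23 lower in Pax7KR, with a median log2 fold change of 0.02 (Pax7KR minus Pax7WT), while the median over all genes tested was -0.004.

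The sizes of the differences were small where the genes were well covered. Among the 30 members at 1 TPM or more, 15 were higher and 15 lower, the median absolute log2 fold change was 0.07 and 27 of 30 (90%) were under 0.25. The same figures over the 13420 tested genes at 1 TPM or more were 0.09 and 84.6%. The largest absolute difference among the 30 was 0.43 on the log2 scale (Adam19). The median coefficient of variation between libraries of a genotype was 12.4% in Pax7WT and 12.6% in Pax7KR for these 30 members, against 9.15% and 7.61% for the 13420 genes.

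**Figure D3:**
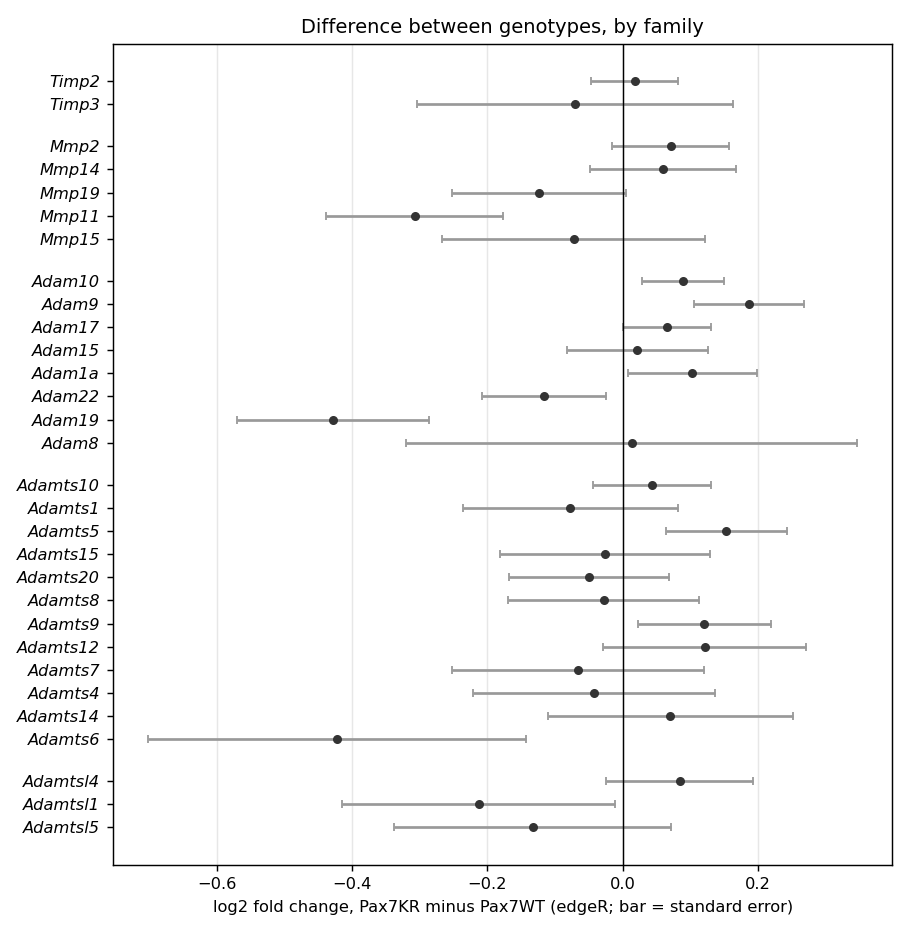
Points give the log2 fold change between Pax7KR and Pax7WT (x axis) for the 30 members at 1 TPM or more, grouped by family, with the standard error from edgeR as bars. Most points lie within 0.25 of 0, and Adam19, Adamts6 and Mmp11 lie farthest to the left.

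Among single genes, the inhibitor Timp2 came first by abundance. Timp2 (ENSMUSG00000017466, chr11:118301069-118355740, - strand) encodes the TIMP that blocks MMP2 but also bridges its precursor to MMP14 for activation. Its level was 863, 831 and 852 CPM in Pax7WT and 841, 903 and 835 CPM in Pax7KR, so the groups overlapped within a narrow band. The log2 fold change was 0.02 with a standard error (SE) of 0.06. Timp3, a TIMP that binds to the matrix and also inhibits ADAM17 and the aggrecan-cleaving ADAMTS enzymes, was at 363, 231 and 356 CPM in Pax7WT and 361, 259 and 285 CPM in Pax7KR. Both groups contained high and low libraries, and the log2 fold change of -0.07 had an SE of 0.23. Timp4 was at 2.87, 2.82 and 2.14 CPM against 3.41, 3.73 and 0.473 CPM, with 10 reads in the lowest library. Timp1, the inducible and X-linked member of the family, had only 1 to 12 reads in a library, with a fitted log2 difference of -1.29 (SE 0.90). Timp2 and Timp3 thus made up nearly all TIMP transcript in both genotypes.

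The gelatinases cut denatured collagen and basement membrane collagen. Mmp2 (ENSMUSG00000031740, chr8:92827291-92853420, + strand) was at 427, 412 and 498 CPM in Pax7WT and 480, 421 and 504 CPM in Pax7KR. The ranges overlapped, with a log2 fold change of 0.07 (SE 0.09). Its main transcript took 88.8% to 95.3% of the TPM of the gene. Mmp9, the other gelatinase, had 7 to 36 reads per library and a mean of 0.658 TPM. Mmp2 was therefore the gelatinase that was read in quantity.

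Membrane-type MMPs are anchored in the plasma membrane, and MMP14 activates the precursor of MMP2. Mmp14 was at 91.8, 97.4 and 71.2 CPM in Pax7WT and 85.3, 90.0 and 96.2 CPM in Pax7KR, with a log2 fold change of 0.06 (SE 0.11). The groups overlapped, and the lowest library was Pax7WT replicate 3. Mmp15 had a mean of 1.88 TPM and a log2 fold change of -0.07 (SE 0.19). Mmp17 had a mean of 0.889 TPM and was at 1.40 to 1.69 CPM in Pax7WT and 1.65 to 2.80 CPM in Pax7KR, while Mmp16, Mmp24 and Mmp25 had at most 9 reads in any library. All 3 parts of the Timp2, Mmp14 and Mmp2 activation complex were thus present, at means of 462, 66.9 and 273 TPM.

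Among the remaining MMPs, Mmp19, which cuts basement membrane proteins, was at 18.8 to 24.8 CPM in Pax7WT and 18.0 to 22.9 CPM in Pax7KR. Mmp11 (stromelysin-3, ENSMUSG00000000901, chr10:75923222-75936496, - strand), an MMP that is activated inside the cell by furin, was at 13.8, 16.9 and 14.1 CPM in Pax7WT and 13.4, 10.8 and 11.9 CPM in Pax7KR. All Pax7KR libraries lay below all Pax7WT libraries, with 0.436 CPM between the nearest. The log2 fold change was -0.31 (SE 0.13, edgeR unadjusted p = 0.0356, adjusted p = 0.992). With transcript length as an offset in edgeR it became -0.12 (SE 0.15), and in TPM the groups overlapped, at 10.9, 13.1 and 11.3 against 11.7, 12.6 and 9.58 TPM. Its main transcript took 94.9% to 98.2% of the TPM in Pax7WT and 82.5%, 64.2% and 96.1% in Pax7KR replicates 1 to 3.

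The ADAMs expressed in somatic cells comprised 12 members, of which 7 reached a mean of 1 TPM. Adam10, which cleaves Notch receptors after ligand binding, was at 116, 116 and 120 CPM in Pax7WT and 129, 118 and 127 CPM in Pax7KR, with a log2 fold change of 0.09 (SE 0.06). Its ranges overlapped only through Pax7KR replicate 2. Adam17, which releases TNF and ligands of the EGF receptor, was at 57.4 to 60.5 CPM against 59.7 to 63.0 CPM, with a log2 fold change of 0.07 (SE 0.07) that became -0.05 with transcript length as an offset. Both genes had coefficients of variation under 5% in each genotype.

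Adam9 (ENSMUSG00000031555, chr8:24949611-25016927, - strand), a broadly expressed sheddase, was at 57.7, 54.7 and 67.8 CPM in Pax7WT and 70.0, 68.8 and 66.4 CPM in Pax7KR. The groups overlapped through Pax7WT replicate 3, which lay above Pax7KR replicate 3. Its log2 fold change was 0.19 (SE 0.08, edgeR unadjusted p = 0.0386, adjusted p = 0.992), and 0.24 (SE 0.09) with transcript length as an offset. In TPM the groups did not overlap, at 25.5, 23.4 and 28.6 against 32.4, 32.4 and 30.9 TPM.

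Adam19 (meltrin beta, ENSMUSG00000011256, chr11:46055992-46147343, + strand), which sheds neuregulins, had the smallest unadjusted p of the members. It was at 16.7, 17.1 and 20.9 CPM in Pax7WT and 12.2, 12.1 and 16.3 CPM in Pax7KR. All Pax7KR libraries lay below all Pax7WT libraries, the nearest being Pax7KR replicate 3 and Pax7WT replicate 1. Means were 18.2 ± 2.31 and 13.6 ± 2.39 CPM (SD, n = 3). This is a log2 fold change of -0.43 (SE 0.14). The edgeR unadjusted p was 0.00983 and the adjusted p 0.992. Exons of annotated genes on the opposite strand overlap those of Adam19 and of Mmp11. With transcript length as an offset the log2 fold change was -0.29 (SE 0.20, unadjusted p = 0.18). In TPM the values were 5.07, 4.33 and 5.54 against 3.31, 3.84 and 5.61, and the highest library of all was then Pax7KR replicate 3, in which the main transcript took 72.5% of the TPM of the gene against 82.9% to 100% in the other libraries.

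**Figure D4:**
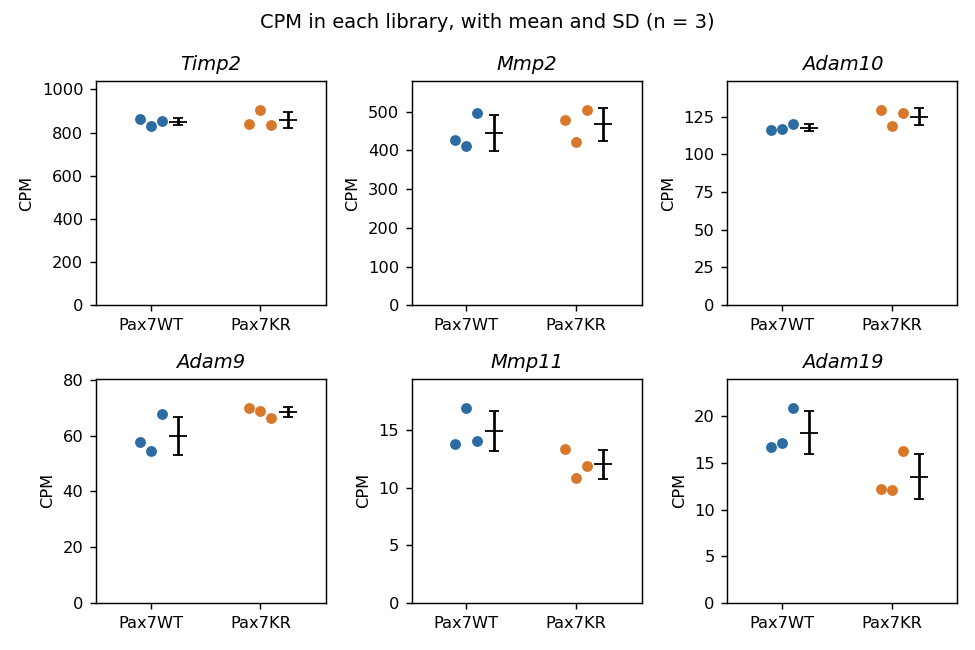
CPM of Timp2, Mmp2, Adam10, Adam9, Mmp11 and Adam19 (y axes start at 0) in each Pax7WT (blue) and Pax7KR (orange) library, with the mean and SD of the 3 libraries as black marks. Of these 6 genes, Mmp11 and Adam19 show no overlap, with gaps of 0.436 and 0.409 CPM between the nearest libraries.

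Other ADAMs were present at lower levels. Adam15 was at 29.2 to 34.4 CPM in Pax7WT and 29.3 to 37.2 CPM in Pax7KR, and Adam22, a receptor without protease activity, at 40.5 to 52.4 and 42.3 to 45.3 CPM. Adam22 was spread over 24 annotated transcripts, and the leading one took 30.2% to 58.4% of its TPM. Adam8, best known from leukocytes, had the widest spread in Pax7WT of the members above 1 TPM, at 1.51, 2.43 and 3.36 CPM. Adam12 (meltrin alpha), known from fusing myoblasts, had a mean of 0.385 TPM. Adam23, which lacks protease activity, had 13 to 36 reads. In CPM it was lower in every Pax7KR library (1.01, 1.01 and 0.615 CPM against 1.18, 1.47 and 1.75 CPM). In TPM its groups overlapped, at 0.394 to 1.42 against 0.334 to 0.881 TPM. Adam21 had 8, 1 and 5 reads in Pax7WT and 1, 0 and 1 reads in Pax7KR. Libraries with 1 read each were put in order by library size alone. Adam1a, of the sperm fertilin family, was listed at 37.0 to 48.8 CPM, but 78.4% of its 31-base words also occur in transcripts of other genes, so that its level is uncertain.

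ADAMTS enzymes gave the largest number of expressed members, 12 of 19. Adamts10 (ENSMUSG00000024299, chr17:33524204-33553782, + strand), which acts on fibrillin microfibrils, was at 400, 440 and 461 CPM in Pax7WT and 439, 398 and 505 CPM in Pax7KR. The groups overlapped, with a log2 fold change of 0.04 (SE 0.09). Its TPM was divided among 15 annotated transcripts, of which the leading one took 23.5% to 27.3%.

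All 7 proteoglycan-cleaving ADAMTS genes were above 1 TPM, and 2 were higher and 5 lower in Pax7KR with a median log2 fold change of -0.03. Adamts1, a protease of versican and aggrecan, was at 490, 343 and 503 CPM in Pax7WT and 419, 464 and 383 CPM in Pax7KR, with a log2 fold change of -0.08 (SE 0.16). Adamts5, the main aggrecanase of cartilage and a versican protease, was at 296, 272 and 301 CPM against 325, 363 and 278 CPM, with a log2 fold change of 0.15 (SE 0.09, edgeR unadjusted p = 0.111). Pax7KR replicate 3 brought its groups into overlap. The log2 fold change of Adamts5 was 0.06 without Pax7KR replicate 2 and 0.25 without Pax7KR replicate 3. Adamts15 was at 110 to 130 CPM in Pax7WT and 98.8 to 147 CPM in Pax7KR, and Adamts20, known from pigment cell migration, at 46.2 to 59.0 and 42.4 to 55.2 CPM. Adamts8, Adamts9 and Adamts4 had means of 9.33, 9.28 and 3.22 TPM.

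The procollagen N-propeptidases, which trim fibrillar procollagen, were low, with Adamts14 at 3.10 TPM, Adamts2 at 0.492 TPM and Adamts3 at 0.459 TPM. Adamts6 had the widest spread in Pax7KR of the members above 1 TPM, at 7.53, 4.91 and 8.14 CPM in Pax7WT and 6.52, 3.14 and 5.77 CPM in Pax7KR. Its log2 fold change of -0.42 (SE 0.28) became -0.16 without Pax7KR replicate 2 and -0.52 (SE 0.21, edgeR unadjusted p = 0.0323) with transcript length as an offset.

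ADAMTS-like proteins share the non-catalytic domains of ADAMTS enzymes and bind microfibrils. Adamtsl4 was at 31.9 to 37.4 CPM in Pax7WT and 31.4 to 41.9 CPM in Pax7KR. Adamtsl1 was at 77.6, 65.3 and 78.5 CPM against 81.5, 49.0 and 60.6 CPM, with a log2 fold change of -0.21 (SE 0.20) that became -0.05 without Pax7KR replicate 2. With transcript length as an offset it was -0.39 (SE 0.15, edgeR unadjusted p = 0.0284, adjusted p = 0.961). Adamtsl5 had a mean of 4.76 TPM and a log2 fold change of -0.13 (SE 0.21). Adamtsl3 had a mean of 0.463 TPM, and its log2 fold change of 0.36 (SE 0.44) became -0.0118 without Pax7KR replicate 1.

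Some members differed more between libraries of a genotype than between genotypes. Adamts1 and Timp3 both had their lowest level in Pax7WT replicate 2, at 0.791 and 0.748 of their mean over the 6 libraries. That library was also lowest for the immediate-early genes Fos, Egr1 and Atf3, at 0.639, 0.639 and 0.382 of their mean. Timp2 (0.973) and Mmp2 (0.901) moved less there. Across the 6 libraries, log2 CPM of Adamts1 followed the log2 sum of the 15 immediate-early and stress genes with Pearson's r = 0.96 (exact permutation p = 0.00833) and Spearman's rho = 0.94 (exact permutation p = 0.0167). Without the 2 libraries farthest from the median of that sum, r was 0.89. Over 30 such relations, 1 for each member above 1 TPM, the Benjamini-Hochberg adjusted values were 0.125 and 0.25, so the relation did not pass the threshold of 0.1 used for genes. Adam1a, whose level is uncertain as given above, had the smallest p of the 30 (r = -0.88, rho = -1, exact permutation p = 0.00278 for both). Its adjusted value of 0.0833 lay under 0.1, and none of the other 28 did. Timp3 gave r = 0.69, and 0.09 without those 2 libraries. Each genotype has 3 libraries, too few for a value within genotypes. Without Pax7WT replicate 2 the log2 fold change of Adamts1 was -0.23 in place of -0.08 (edgeR unadjusted p = 0.0114, adjusted p = 0.716).

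**Figure D5:**
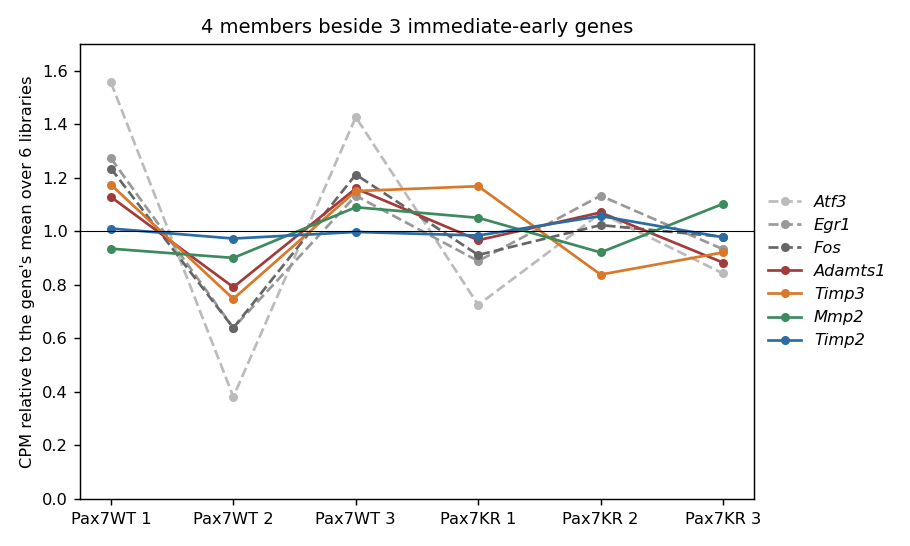
Lines give the CPM of 4 members (solid) and of the immediate-early genes Atf3, Egr1 and Fos (dashed) in each library, relative to the mean of the gene over the 6 libraries (y axis). In Pax7WT replicate 2, Adamts1 and Timp3 fall to 0.791 and 0.748 with the dashed lines, while Timp2 stays at 0.973.

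Partners and substrates of these enzymes were read from lists of genes outside the families. Of 26 activators, partners and further inhibitors, 24 were tested, 0 passed the adjusted threshold in edgeR and 0 fell under 0.05 before adjustment, with 15 higher, 9 lower and a median log2 fold change of 0.02. The most abundant were Lrp1, the receptor that clears protease and inhibitor complexes (243 TPM), Bsg, an inducer of MMPs (235 TPM), and Plau, the urokinase that generates plasmin (117 TPM). Rhbdf1 and Rhbdf2, which carry ADAM17 to the cell surface, had log2 fold changes of -0.02 (SE 0.07) and 0.18 (SE 0.11), and Tspan15, a partner of ADAM10, of -0.13 (SE 0.08). Rhbdf2 became 0.0541 without Pax7WT replicate 3 and 0.32 without Pax7WT replicate 1, and Tspan15 became -0.0484 without Pax7KR replicate 2 and -0.0838 without Pax7WT replicate 1. Plat, the tissue-type plasminogen activator, was at 36.1, 36.9 and 42.0 CPM in Pax7WT and 38.1, 31.1 and 35.1 CPM in Pax7KR, with a log2 fold change of -0.14 (SE 0.10) that became -0.0652 without Pax7KR replicate 2 and -0.0698 without Pax7WT replicate 3. Of 37 substrates, 31 were tested and 0 passed in edgeR, with 13 higher, 18 lower and a median of -0.04. The most abundant substrates were the dystroglycan gene Dag1 at 907 TPM, Col3a1 at 627 TPM, Notch3 at 501 TPM and the syndecan gene Sdc4 at 439 TPM, with log2 fold changes between -0.10 and 0.10.

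An unadjusted p under 0.05 in edgeR was reached by 3 of the 31 substrates tested. Of these, 2 were higher in Pax7KR, where 2.26% of all genes passed, and 1 was lower, where 2.43% passed. Fn1, which encodes fibronectin, was at 33.1, 29.5 and 36.4 CPM in Pax7WT and 47.6, 59.2 and 44.0 CPM in Pax7KR, without overlap. Its log2 fold change was 0.61 (SE 0.12) with an adjusted p of 0.445 in edgeR and 0.00883 in DESeq2. Cx3cl1, a membrane-bound chemokine shed by ADAM10 and ADAM17, was at 62.4, 59.7 and 53.8 CPM against 57.8, 49.2 and 44.9 CPM (log2 fold change -0.21, SE 0.09). Acan, the aggrecan gene, had no read in Pax7WT and at most 8 reads in any Pax7KR library.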

How the data were processed

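RNA was taken from sorted satellite cells of 3 Pax7WT and 3 Pax7KR samples and sequenced as paired, directional libraries. The authors quantified reads against GENCODE transcripts of GRCm38, with genomic decoys, in Salmon 1.3.0 and deposited, per transcript and library, estimated counts, TPM and effective lengths. They also deposited a table of their own comparison (log2 fold changes, errors and p-values made with DESeq2 1.28.1), which was not used here. The strand setting of the quantification is not given in the sources used here, and exons of Timp3, Timp4, Mmp11, Mmp19, Adam1a, Adam8, Adam15, Adam17, Adam19, Adamts4, Adamts7, Adamts8 and Adamts9 overlap exons on the opposite strand.

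The deposited estimated counts were summed per gene through GENCODE vM21, an earlier release than that of the authors, by transcript identifier, which matched 99.1% of 140992 transcripts. The 1201 unmatched transcripts held 0.592% to 0.634% of the reads. Gene sums were rounded and tested with edgeR 4.0.16 (R 4.3.3; TMM, quasi-likelihood with robust shrinkage, genotype as the only term) over the 17152 genes that had at least 5 reads in at least 2 libraries. P-values were adjusted by Benjamini-Hochberg across the whole table, and 0.1 was the threshold, as in the methods of the study. The biological coefficient of variation was 13.8%. CPM used TMM library sizes. The deposited TPM were summed per gene, without TMM scaling, and served for levels between genes. They were also given by genotype, without a test, for the sum over all members and for Mmp11, Adam9, Adam19, Adam23 and Adamts6. DESeq2 1.42.0, transcript-length offsets, other size factors and filters, a replicate block and the omission of each library were tried as alternatives. In simulated data for this comparison, over 16628 genes, edgeR recovered 69.1% of 94 genes given a log2 difference of 1 and 82.7% of 98 given 2, with 23 false calls. Differences of the size seen in members at 1 TPM or more (at most 0.43) were not simulated, so recovery at that size is not known. Relations across libraries were tested by exact permutation (scipy 1.17.1), and motifs were searched in RefSeq promoter windows of 250 bases before the start. With 3 against 3 libraries, an exact permutation test of a single gene cannot go below p = 0.1, so none was used for genotype. Libraries differed from each other by more than counting noise (chi-square per gene 10.2 to 23.3), so each was counted as 1 sample.

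The members, lists and tests were chosen with earlier results of these data known. Named with their level or test values were all Timp genes, up to 6 tested genes of each other family with the highest TPM, the 10 members with the smallest unadjusted p, the members above 1 TPM with the widest spread in each genotype, and of each list outside the families the 4 most abundant and the 3 with the smallest unadjusted p. Fos, Egr1 and Atf3, the relation to the immediate-early list and the promoters printed were chosen after their values were seen.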

Additional observations from a re-analysis of the deposited data

How the results depend on the processing

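No member passed the adjusted threshold under any alternative, and the smallest adjusted p of a member was 0.125 (without a filter on low reads). The number of genes called among all genes was 0 in edgeR and moved to 30 (DESeq2), 45 (DESeq2 with a transcript-length offset), 157 (no filter) and 13 (replicate block), and lay between 1 and 32 when libraries were left out in turn; the cause was not tested. Members with an unadjusted p under 0.05 numbered 3, but 1 in DESeq2, 4 with the replicate block and 1 (without Pax7KR replicate 2) to 5 (without Pax7WT replicate 2) when a library was left out. The share of all genes under 0.05 was not counted for these alternatives. Same-numbered libraries did not deviate together (r from -0.056 to 0.045 for the 3 same-numbered pairs, from -0.085 to 0.082 for other pairs). The labels give no pairing, and with 3 libraries per genotype this check cannot exclude one. With transcript length as an offset, Adam9, Adamts6 and Adamtsl1 had an unadjusted p under 0.05 in both tools and Adam19 and Mmp11 did not. In DESeq2 and edgeR with this offset, signs turned for Timp4 (0.16 and 0.17), Mmp17 (-0.0203 and -0.0223), Adam17 (-0.0485 and -0.0487), Adam8 (-0.32 in both) and Lrp1 (-0.0298 and -0.0303). Fn1 passed the threshold in DESeq2 (0.61), in DESeq2 with the offset (0.91) and without a filter (0.61), and in edgeR without Pax7KR replicate 3 (0.69, adjusted p = 0.0737).

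Among the 45 named genes with a fit, leaving out 1 library turned the sign of 18 log2 fold changes, most of them near 0 in the full set. Ranges were -0.0185 to 0.0398 for Timp2, -0.25 to 0.0393 for Timp3, -0.42 to 0.45 for Timp4 and -0.0642 to 0.15 for Mmp14. They were -0.0764 to 0.098 for Adam15, -0.25 to 0.33 for Adam8, -0.0515 to 0.12 for Adamts10 and -0.23 to 0.0194 for Adamts1. Further ranges were -0.20 to 0.0933 for Adamts15, -0.14 to 0.0649 for Adamts20 and -0.16 to 0.11 for Adamts8. Adamtsl4 ranged from -0.0361 to 0.18 and Adamtsl3 from -0.0118 to 0.81. Outside the families, ranges were -0.0128 to 0.0689 for Lrp1, -0.0817 to 0.0367 for Rhbdf1, -0.0952 to 0.0217 for Dag1, -0.06 to 0.0213 for Col3a1 and -0.0009 to 0.19 for Sdc4. Members outside the named genes also turned sign, such as Adamts7 (-0.19 to 0.061) and Adamts4 (-0.17 to 0.089). Fn1 kept its direction (0.47 to 0.69). Adam19 stayed lower in Pax7KR (-0.58 to -0.32), as did Mmp11 (-0.39 to -0.21), and Adam9 stayed higher (0.13 to 0.28). Of 45 named genes with a fit, 25 turned sign under no alternative. Members under 1 TPM rest on few reads, so their differences carry the widest errors.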
